A study of Mus musculus with 9 samples.

Results

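The genes described here were 10 epithelial keratins, Krt8, Krt18, Krt19, Krt5, Krt14, Krt15, Krt6a, Krt17, Krt4 and Krt13, chosen by symbol from the 54532 genes of the count table. No cut-off on a measured value was used, but earlier results of these data were known. The libraries were made from mouse lambdoidal junction tissue, where the facial prominences (maxillary, medial nasal and lateral nasal) meet to form the upper lip and primary palate. The embryos were C57BL/6J, with no treatment or mutant allele named for any group, and were collected on embryonic day 10.5 (E10.5), 11.5 (E11.5) or 12.5 (E12.5). Each stage had 3 libraries, and each library was a pool of embryos, so p-values measure the spread between pools. Between 16581009 and 20836804 reads were counted per library.

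Keratins are the intermediate filament proteins of epithelial cells. A filament is built from pairs of an acidic type I and a basic type II keratin, and the pair that a cell makes changes with the kind of epithelium. Krt8 and Krt18 are the pair of simple epithelia, among them the early surface ectoderm, and are often joined by the type I keratin Krt19. Krt5 and Krt14 are the pair of the basal layer of stratified epithelia, where the type I keratin Krt15 is found as well. Krt6a and Krt17 are keratins of activated keratinocytes, skin appendages and the periderm, the flat superficial layer of the embryonic epidermis, and Krt4 and Krt13 are the suprabasal pair of the lining of the mouth and esophagus. At the lambdoidal junction the epithelia of the prominences touch and are removed as the prominences fuse.

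Between E10.5 and E12.5 the basal keratins rose and the simple keratins did not. Krt5 rose in both intervals, from 2.11 ± 0.434 CPM (read counts over the scaled library total) through 34.4 ± 8.42 to 152 ± 2.66 CPM (SD, n = 3 libraries per stage). Krt15 also rose in both, while Krt14, Krt17 and Krt6a rose from E11.5 to E12.5. Krt18 and Krt19 fell from E10.5 to E11.5, and no simple keratin passed the test between E11.5 and E12.5. Krt4 and Krt13 were at or below 3 counts in every library.

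The tissue is a mixture, and fewer epithelial cells and less keratin RNA per cell cannot be told apart in it. Summed over 12 pan-epithelial marker genes (such as Cdh1, Epcam and Esrp1), the level was 431–752 CPM at E10.5, then 420–448 CPM (E11.5) and 399–447 CPM (E12.5). Summed over 10 mesenchyme markers it was 1426–2628, 3712–4043 and 4305–4797 CPM. E10.5 replicate 3 stood apart from the other E10.5 libraries. It had the highest pan-epithelial sum (752 CPM, against 431 and 485) and the lowest mesenchyme sum (1426 CPM, against 2628 and 2594). Over genes, the SD of its log2 difference from replicates 1 and 2 was 0.546 and 0.552, against 0.205 between those 2, and its differences ran with GC content (Spearman's rho of 0.677 and 0.682 across genes, which are not independent replicates). Fold changes of the simple keratins against E10.5 are therefore given with and without E10.5 replicate 3. The same SD was 0.351 to 0.477 between pairs of E12.5 libraries and 0.189 to 0.241 between pairs of E11.5 libraries.

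The 10 genes lie in the keratin gene clusters of chromosomes 11 and 15 (GRCm38), 5 on each, among 27 keratin genes of the table on each chromosome. Of these, those on chromosome 11 are type I and those on chromosome 15 type II genes, with the exception of the type I gene Krt18. Krt8 (ENSMUSG00000049382, chr15:101996698-102004482, minus strand) and its partner Krt18 (ENSMUSG00000023043, chr15:102028180-102032027, plus strand) are neighbours, 23.7 kb apart with their start sites facing each other and no protein-coding gene between them. Krt15 (ENSMUSG00000054146, chr11:100131758-100135928) and Krt19 (ENSMUSG00000020911, chr11:100140810-100148665) are 4.88 kb apart, both on the minus strand, again with no protein-coding gene between them. Krt6a (ENSMUSG00000058354, chr15:101689910-101694307) lies 12.8 kb from Krt5 (ENSMUSG00000061527, chr15:101707070-101712898), both on the minus strand. Krt8 and Krt18 lay in similar proportion at each stage, whereas Krt15 rose and Krt19 fell in E11.5 vs. E10.5.

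The sequences before the start sites of Krt5 and of the pair Krt8 and Krt18 are shown because Krt5 rose in both intervals while Krt8 and Krt18 were the leading keratins of E10.5. They are RefSeq promoter windows (GRCm38.p6), cut to the bases upstream of both the RefSeq start and the deposited 5′ end of the gene, and are written 5′ to 3′ on the gene's strand, with capitals marking a match to one of the motifs searched.
Krt5 (chr15:101712906-101713155, minus strand): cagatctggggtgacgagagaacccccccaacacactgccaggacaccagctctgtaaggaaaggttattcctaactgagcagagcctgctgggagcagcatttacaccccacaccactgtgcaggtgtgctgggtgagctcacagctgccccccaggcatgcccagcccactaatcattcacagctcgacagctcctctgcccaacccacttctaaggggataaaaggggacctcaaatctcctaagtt
Krt8 (chr15:102004483-102004592, minus strand): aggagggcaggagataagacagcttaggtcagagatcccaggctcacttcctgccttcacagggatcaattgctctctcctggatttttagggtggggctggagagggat
Krt18 (chr15:102027966-102028179, plus strand): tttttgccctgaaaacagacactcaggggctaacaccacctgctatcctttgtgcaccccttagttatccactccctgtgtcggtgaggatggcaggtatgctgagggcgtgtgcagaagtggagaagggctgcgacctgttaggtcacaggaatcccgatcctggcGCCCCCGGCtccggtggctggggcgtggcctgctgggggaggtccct
The motifs were searched on both strands of the whole windows of 300 bases, and of the 10 genes 5 had a window (Krt5, Krt8, Krt13, Krt14 and Krt18). The AP-2 motif GCCNNNGGC was found in Krt18 only, 83 bases before its RefSeq start, and in 16.6% of all 32851 windows. The TATA box TATAAA was found in Krt8 only, at its RefSeq start, which lies 140 bases inside the deposited gene, and in 13.6% of all windows. The AP-1 motif TGANTCA (7.81% of all windows) and the CCAAT box CCAAT (37.4%) were found in Krt13 only, and the GC box GGGCGG (35.7%) in none of the 5. In Krt5 and Krt14 none of these letters was found. The RefSeq start of Krt14 lies 1518 bases inside the deposited gene, and its whole window lies within that gene. Krt13 had a window at its deposited 5′ end and another whose RefSeq start lies 989 bases inside the deposited gene. The CCAAT box of Krt13 was found only in that inner window, and the AP-1 motif in both. A match is a run of letters and not a bound site.

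Reads of a gene can be lost to or gained from copies of its sequence. Krt6a shared 47.5% of its transcript stretches of 100 bases with other genes, among them Krt5, Krt6b, Gm5414 and Gm5478. Krt8 shared 17.1% with a pseudogene, Krt8-ps, and with Gm36026. Krt5 shared 3.81%, some of it with Krt6a, and Krt14 2.88%, and the other 6 genes shared none. In the E12.5 libraries Krt5 had 2494–2816 counts and Krt6a 29–31. Whether reads of Krt5 were counted for Krt6a was not tested. Krt6b, Gm5414 and Gm5478 had 0 counts in all 9 libraries, and Krt8-ps at most 4. Of the exon bases of Krt6a, 24.8% overlap antisense genes (Gm44342 and Gm49428), which also had 0 counts, and whether the counting used strand is not given in the sources used here. The values of Krt6a and Krt8 are uncertain to that extent. The study's PCR primers for Krt5 and Krt6a are shown because they fall in stretches that differ in how far the sequence is shared.
Krt5-F: tcaccccatctgtctctcgt
Krt5-R: tggatggtggggtcgatttg
Krt6a-F: agggtgtttccgacaccttc
Krt6a-R: gaggaagccaagagcatcaag
Krt5-F matches coding exon 1 of Krt5 (chr15:101712724-101712743) and no other gene's transcript, while Krt5-R, antisense in the same exon (chr15:101712344-101712363), has exact matches in Krt6b, Gm5414 and Gm5478 too. Both Krt6a primers match Krt6a alone, in the untranslated part of exon 9 (chr15:101690154-101690173 and chr15:101689960-101689980).

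Fold changes were tested in each pair of stages on its own 6 libraries, and a gene was called when its Benjamini-Hochberg adjusted p-value (quasi-likelihood test of edgeR) was at most 0.05 and its absolute log2 fold change at least 1. In E11.5 vs. E10.5, 4 of the 10 keratins were called, 2 up and 2 down, where 6.07% of all genes tested were called, 3.46% up and 2.61% down. From E11.5 to E12.5, 5 were called, all up, against 5.1% of all genes (4.14% up and 0.962% down), and none was lower at an unadjusted p-value below 0.05 or called down by DESeq2. In E12.5 vs. E10.5, 6 were called, 5 up and 1 down, against 15% of all genes (9.97% up and 5.08% down). The libraries of the later stage lay wholly above those of the earlier one for 3 and wholly below for 3 of the 10 keratins in the first comparison (18.3% and 18.3% of all genes). These numbers were 6 above (19.1%) in the second and 5 above (22.4%) and 2 below (20.1%) in the third. Krt4 and Krt13 had too few counts to be tested in any comparison, and Krt6a in E11.5 vs. E10.5. The median log2 fold change of the keratins tested was 0.97, 1.92 and 3.55 in the order above, and that of all genes tested was −0.032, 0.019 and −0.0063. The 3 comparisons share libraries, so their calls are not independent of each other.

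**Figure D1:**
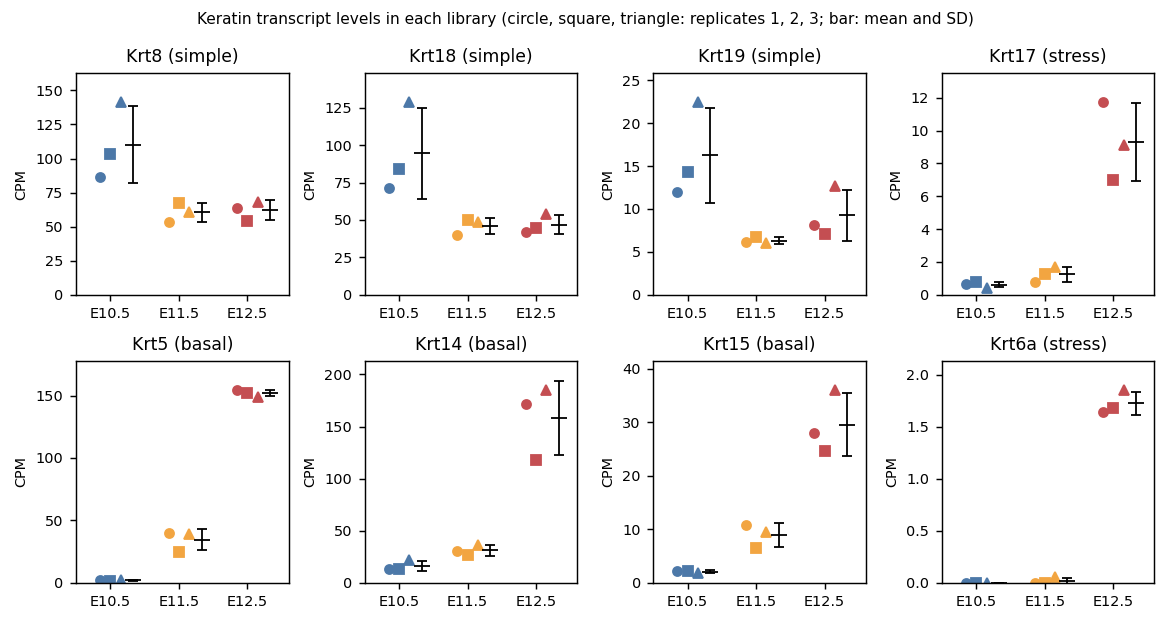
Level in CPM (y axis, a separate scale for each gene, starting at 0) of the 8 keratins above the limit of detection, by stage (x axis). Symbols are the libraries of replicates 1, 2 and 3, and the bar beside them is the mean with the SD of n = 3 libraries. The E12.5 libraries lie above all others for Krt5, Krt14, Krt15, Krt17 and Krt6a, and the E10.5 libraries lie above the E11.5 libraries for Krt8, Krt18 and Krt19.

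Among the simple keratins, Krt8 was at 86.1, 103 and 141 CPM in E10.5 replicates 1, 2 and 3, at 53.4, 67.0 and 61.0 CPM in those of E11.5 and at 63.8, 54.3 and 68.3 CPM in those of E12.5. All E10.5 libraries lay above all later ones, E10.5 replicate 3 was the highest, and E11.5 and E12.5 overlapped. In E11.5 vs. E10.5 the log2 fold change was −0.86 (standard error 0.19), and its adjusted p-value was 0.0232 by Benjamini-Hochberg correction in edgeR's quasi-likelihood test. This passed the test but lay short of the fold-change threshold. From E11.5 to E12.5 the log2 fold change was 0.022, with a 95% interval from −0.28 to 0.32.

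Krt18, the type I partner of Krt8, was at 71.2, 83.8 and 129 CPM in the E10.5 libraries, at 40.1, 49.9 and 48.8 CPM in those of E11.5 and at 41.9, 44.6 and 53.9 CPM in those of E12.5. As for Krt8, all E10.5 libraries lay above both later stages, which overlapped, and replicate 3 was the highest. The fall in E11.5 vs. E10.5 was −1.03 on the log2 scale (standard error 0.22, adjusted p-value 0.0213 by Benjamini-Hochberg correction in edgeR's quasi-likelihood test). From E11.5 to E12.5 the interval of its log2 change ran from −0.32 to 0.32. Within a library, Krt18 and Krt8 stayed close to each other. Per kilobase of gene length, Krt18 was 1.16 ± 0.072 times Krt8 at E10.5, then 1.04 ± 0.041 at E11.5 and 1.03 ± 0.119 at E12.5, and the E12.5 libraries (0.894–1.12) overlapped those of both other stages, which did not overlap each other.

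Krt19, a type I keratin that lacks the usual tail domain, was lower than both. It was at 11.9, 14.3 and 22.4 CPM in the E10.5 libraries, at 6.11, 6.75 and 5.99 CPM in those of E11.5 and at 8.10, 7.03 and 12.7 CPM in those of E12.5. E10.5 did not overlap E11.5, and the E12.5 libraries lay between them, all above E11.5 and with replicate 3 inside the E10.5 range. Between E10.5 and E11.5 the log2 fold change was −1.36 (standard error 0.25), and its adjusted p-value was 0.0123 by Benjamini-Hochberg correction in edgeR's quasi-likelihood test. In E12.5 vs. E11.5 it was 0.54 with a 95% interval from 0.041 to 1.04, and the adjusted p-value of 0.141 by Benjamini-Hochberg correction in edgeR's quasi-likelihood test did not pass. Krt19 was the only simple keratin whose libraries of these 2 stages did not overlap.

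The size of the falls depended on E10.5 replicate 3. Without it the log2 fold changes in E11.5 vs. E10.5 were −0.74 for Krt18, which was then no longer called, −1.06 for Krt19 and −0.64 for Krt8. The test was also lost without any 1 of the E11.5 libraries for Krt18 (log2 fold changes of −0.93 to −1.08) and without E11.5 replicate 1 or 3 for Krt19 (−1.34 and −1.32), so these folds moved little. Without E11.5 replicate 1 the adjusted p-values of Krt18 and Krt19 were 0.119 and 0.0785, and without E11.5 replicate 3 they were 0.0892 and 0.0711, each by Benjamini-Hochberg correction in edgeR's quasi-likelihood test. Without E11.5 replicate 2 that of Krt18 was 0.0705 by the same Benjamini-Hochberg correction in edgeR. Krt8 was called without E10.5 replicate 1 (log2 fold change −1.01), but did not pass the test without E10.5 replicate 2 or without E11.5 replicate 1, 2 or 3. Its adjusted p-values were then 0.0533, 0.125, 0.0654 and 0.105 by the same Benjamini-Hochberg correction in edgeR. From E10.5 to E12.5, the log2 fold change was −1.02 (standard error 0.23) for Krt18, −0.83 (0.21) for Krt8 and −0.81 (0.30) for Krt19, and Krt18 was the 1 keratin called down. This call too was lost without E10.5 replicate 3 (−0.73), E12.5 replicate 1 (−0.94) or E12.5 replicate 2 (−0.98). Without E10.5 replicate 3, Krt8 was at −0.61 and Krt19 at −0.51 in this comparison. Krt8 did not pass the test without E12.5 replicate 1 or 2, and Krt19 was called without E12.5 replicate 3 (−1.11) or E10.5 replicate 1. The pan-epithelial markers also had negative fold changes, and their part in the values of the simple keratins was not tested beyond the ratios given next. Of the 12, none was called in E11.5 vs. E10.5 by edgeR or by DESeq2, 4 were lower at an unadjusted p-value below 0.05, and the median log2 fold change of the 12 was −0.37. These values include E10.5 replicate 3, where the 12 summed to 752 CPM. The sum was 431 and 485 CPM in E10.5 replicates 1 and 2 and 420–448 CPM at E11.5. A median without replicate 3 is not given here. Cldn6, a tight-junction claudin, had the smallest p-value (log2 fold change −0.65, adjusted p-value 0.0523 by Benjamini-Hochberg correction in edgeR's quasi-likelihood test). Set against the summed counts of these 12 genes in the same library, Krt8, Krt18 and Krt19 still differed between E10.5 and E11.5 without overlap, with log2 differences of −0.52 for Krt8 and −0.67 for Krt18. Without E10.5 replicate 3 these differences were −0.57 for Krt8, −0.67 for Krt18 and −0.98 for Krt19.

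**Figure D2:**
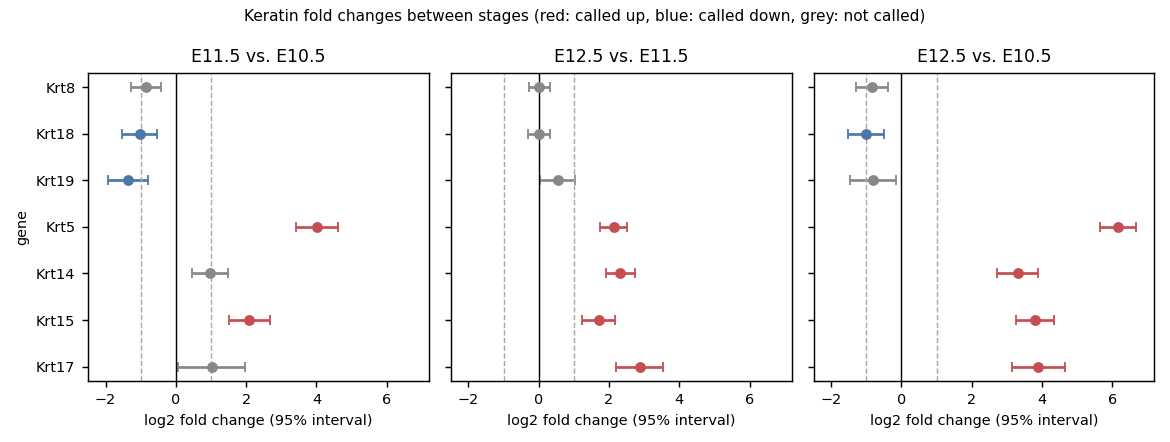
Log2 fold change (x axis, 95% interval as the bar) of the 7 keratins with enough counts at every stage (y axis), for each pair of stages. Red points were called up, blue points called down and grey points not called, and the dashed lines mark an absolute log2 fold change of 1. Krt5 has the highest value in the first panel (4.03) and Krt8 and Krt18 lie near 0 in the second.

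Krt5, the type II keratin of basal cells, was at 2.30, 1.62 and 2.42 CPM in the E10.5 libraries, at 39.7, 24.7 and 38.7 CPM in those of E11.5 and at 154, 152 and 149 CPM in those of E12.5. No stage overlapped another. The E12.5 libraries were within a narrow range, while E11.5 replicate 2 lay below the other E11.5 libraries. The log2 fold changes of 4.03 (standard error 0.26) and 2.13 (0.17) had adjusted p-values of 7.23e-04 and 5.77e-05 by Benjamini-Hochberg correction in edgeR's quasi-likelihood test. Both held in every alternative run, with values from 3.86 to 4.22 and from 1.92 to 2.23.

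Krt14 (ENSMUSG00000045545, chr11:100203162-100207548, minus strand), the type I partner of Krt5, was already at 13.4, 13.0 and 21.6 CPM in the E10.5 libraries. It was at 30.8, 26.2 and 36.5 CPM in those of E11.5 and at 172, 118 and 185 CPM in those of E12.5. The stages did not overlap, and E12.5 replicate 2 was the lowest of its stage. Between E10.5 and E11.5 the log2 fold change was 0.97 (standard error 0.23), and its adjusted p-value was 0.0312 by Benjamini-Hochberg correction in edgeR's quasi-likelihood test, but the change was just short of the fold-change threshold. Without E10.5 replicate 3 it was 1.24 and was called. Without any 1 of the other 5 libraries it was 0.84 to 1.08 and did not pass, with adjusted p-values from 0.0603 to 0.138 by Benjamini-Hochberg correction in edgeR's quasi-likelihood test, nor did it with the GC trend of each library removed (0.0829). In E12.5 vs. E11.5 Krt14 rose by 2.33 (standard error 0.19, adjusted p-value 5.76e-05 by Benjamini-Hochberg correction in edgeR's quasi-likelihood test).

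Krt15, the other type I keratin of basal cells, was at 2.24, 2.19 and 1.86 CPM in the E10.5 libraries, at 10.9, 6.42 and 9.57 CPM in those of E11.5 and at 27.9, 24.6 and 36.0 CPM in those of E12.5. Again no stage overlapped another, and E11.5 replicate 2 was the lowest of its stage, as it was for Krt5 and Krt14. The log2 fold changes were 2.09 (standard error 0.25) and 1.71 (0.21), with adjusted p-values of 0.00282 and 6.31e-04 by Benjamini-Hochberg correction in edgeR's quasi-likelihood test. Against the summed pan-epithelial counts, the log2 changes from E10.5 to E12.5 were 6.52 for Krt5, 3.65 for Krt14 and 4.13 for Krt15, with no overlap of the libraries.

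Krt5 was the only keratin for which the test of a difference between the intervals passed. The log2 change from E11.5 to E12.5 minus that from E10.5 to E11.5, fitted on all 9 libraries, was −1.89 for Krt5 (95% interval from −2.61 to −1.17), and its adjusted p-value was 0.0225 by Benjamini-Hochberg correction in edgeR's quasi-likelihood test. Of all genes 1.18% were called in this contrast, 0.562% with a larger and 0.623% with a smaller second change. For the other 6 keratins with enough counts at every stage it was 1.37 for Krt14, −0.37 for Krt15, 1.87 for Krt17, 0.89 for Krt8, 1.04 for Krt18 and 1.91 for Krt19, with adjusted p-values from 0.0867 for Krt19 to 0.755 for Krt15 by Benjamini-Hochberg correction in edgeR's quasi-likelihood test. The call of Krt5 was lost without E11.5 replicate 1, E11.5 replicate 3 or E12.5 replicate 1, with adjusted p-values of 0.175, 0.158 and 0.0714 by Benjamini-Hochberg correction in edgeR's quasi-likelihood test. Krt14 stood far above Krt5 at E10.5 and beside it later. Per kilobase, Krt14 was 9.49 ± 2.03 times Krt5 at E10.5, with 7.24 as the lowest library, but 1.16 ± 0.180 times at E11.5 and 1.30 ± 0.303 times at E12.5, where the highest library was at 1.55.

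**Figure D3:**
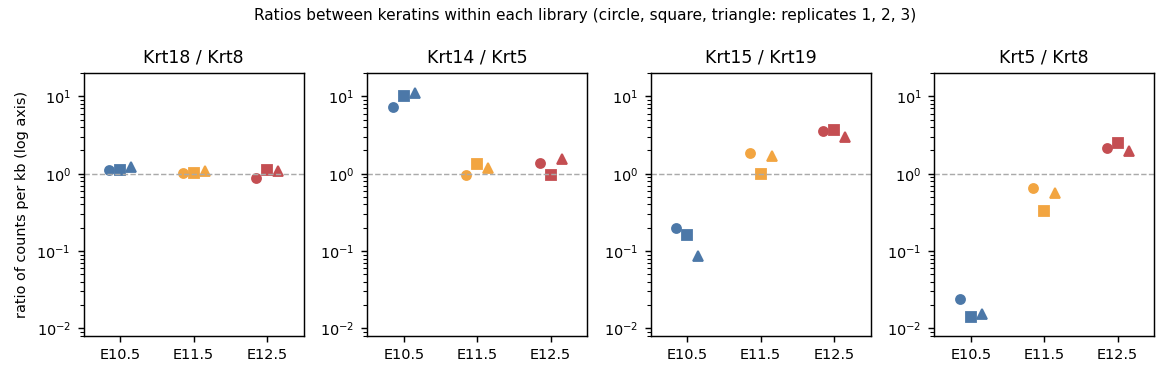
Ratio of the counts per kilobase of 2 keratins within a library (y axis, log scale) at each stage (x axis), with replicates 1, 2 and 3 as circle, square and triangle. Krt18 over Krt8 stays near 1, Krt14 over Krt5 drops from between 7.24 and 11.2 to near 1, and Krt15 over Krt19 and Krt5 over Krt8 climb from below 1 to above it.

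Krt17 (ENSMUSG00000035557, chr11:100256217-100261029, minus strand) was near the limit of detection before E12.5. It had 11, 13 and 7 counts in the E10.5 libraries and 14, 27 and 32 at E11.5, or 0.650, 0.750 and 0.434 CPM and 0.750, 1.29 and 1.68 CPM. At E12.5 it had 207, 129 and 153 counts, or 11.7, 6.97 and 9.14 CPM. The first 2 stages met at 0.750 CPM, and the E12.5 libraries lay above both. In E12.5 vs. E11.5 Krt17 rose by 2.87 on the log2 scale (standard error 0.30, adjusted p-value 2.69e-04 by Benjamini-Hochberg correction in edgeR's quasi-likelihood test), while the change in E11.5 vs. E10.5 was 1.01 with a 95% interval from 0.049 to 1.98 and did not pass.

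Krt6a had no count in any E10.5 library, 1 count in E11.5 replicate 3 and none in the other E11.5 libraries. At E12.5 it had 29, 31 and 31 counts, or 1.64, 1.68 and 1.85 CPM, so all E12.5 libraries lay above all others. Relative to E10.5 the E12.5 mean was at least 9.64-fold higher, computed against a limit of 3 counts per library. Against the single count at E11.5 the ratio was 101, with a counting interval from 17.6 to 4024 (95%, exact binomial), which covers counting error only, since reads were not marked by molecule. Krt6a was called up in both comparisons with E12.5, with adjusted p-values of 2.68e-04 against E10.5 and 2.93e-04 against E11.5 by Benjamini-Hochberg correction in edgeR's quasi-likelihood test. At 29 to 31 counts, counting error is large, so the closeness of its E12.5 libraries is not read as a low spread between pools.

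The mucosal keratins Krt4 (ENSMUSG00000059668, chr15:101918535-101924735, minus strand) and Krt13 (ENSMUSG00000044041, chr11:100117327-100121566, minus strand) were at or under the limit of detection of 3 counts. Krt4 had 3 counts in E12.5 replicate 1 and 0 in the other 8 libraries, and Krt13 had 2 counts in E11.5 replicate 2 and 0 in the others. A count of 0 allowed up to 0.144–0.186 CPM, depending on the library.

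Levels of different genes were compared per kilobase. At E10.5, Krt18 (65.8 ± 21.1 CPM per kb) and Krt8 (56.3 ± 14.5) led the order, with libraries that overlapped. Krt14 (9.10 ± 2.78) and Krt19 (8.75 ± 2.97) followed, also overlapping, and then Krt15 (1.19 ± 0.118) and Krt5 (0.962 ± 0.198). At E11.5 Krt18 and Krt8 still led at 32.2 ± 3.72 and 30.9 ± 3.49 CPM per kb, and Krt14 (17.7 ± 2.95) and Krt5 (15.6 ± 3.83) stood next without overlap between the pairs. At E12.5 the order was turned, with Krt14 (89.9 ± 20.3) and Krt5 (69.1 ± 1.21) first, Krt18 (32.5 ± 4.37) and Krt8 (31.7 ± 3.65) next and Krt15 at 16.7 ± 3.32 CPM per kb. The lowest Krt5 or Krt14 library of E12.5 lay above the highest of Krt18 and Krt8. Krt17 (5.98 ± 1.53) and Krt19 overlapped at the lower end, and Krt6a was at 0.713 ± 0.0467 CPM per kb.

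The summed level of all keratin genes was 148 ± 42.2 CPM per kb in the E10.5 libraries, 111 ± 6.58 in those of E11.5 and 261 ± 32.1 in those of E12.5. Simple keratins made up 88.1 ± 1.21%, 59.7 ± 6.19% and 26.5 ± 1.55% of it in the same order. The share of the basal keratins was 7.66 ± 0.832%, 34.5 ± 6.29% and 67.2 ± 1.42%. E11.5 replicate 2 had the lowest basal share of its stage (27.3%) and the highest simple share (66.7%), and the libraries of the 3 stages did not overlap in either. Krt6a and Krt17 together held 0.289 ± 0.127%, 0.717 ± 0.242% and 2.56 ± 0.459%. Among the 10 keratins described here, without the other keratin genes, type I exceeded type II at every stage, by 1.48 ± 0.0861, 1.27 ± 0.0499 and 1.47 ± 0.235 times. The summed simple level itself was 131 ± 38.4, 66.5 ± 7.23 and 69.3 ± 8.75 CPM per kb, and that of the basal keratins 11.2 ± 2.80, 38.4 ± 7.60 and 176 ± 22.8. E10.5 replicate 3 had the highest simple level (174 CPM per kb). From E11.5 to E12.5 the simple level differed by less than its SD. The ratio of basal to simple keratins was 0.0871 ± 0.0107, 0.588 ± 0.159 and 2.54 ± 0.209. These sums are descriptions and were not tested.

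**Figure D4:**
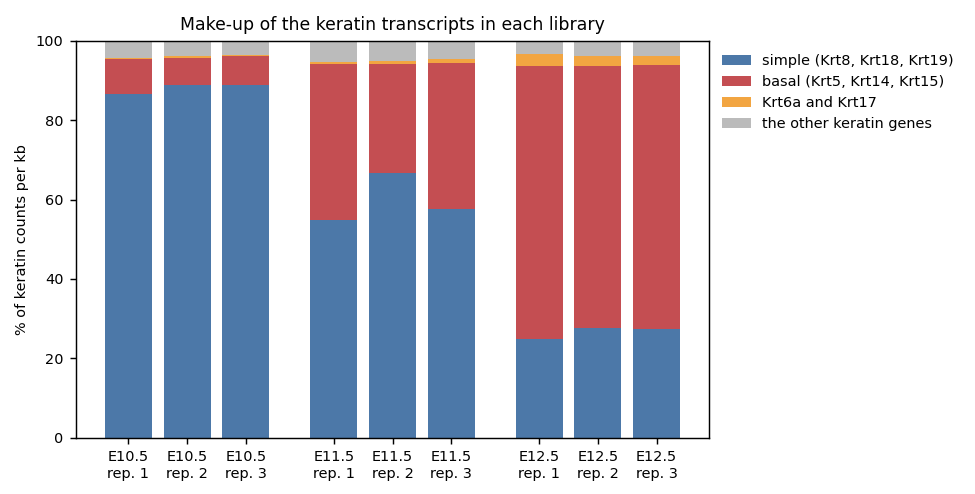
Share of each keratin group in the summed counts per kilobase of all keratin genes (y axis, percent) in each of the 9 libraries (x axis). Simple keratins take 86.7–88.8% in the E10.5 libraries and 24.8–27.6% in the E12.5 libraries, with basal keratins taking most of the difference.

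Of the other 44 keratin genes of the table, 11 had no count in any library, 31 had at most 3 counts in every library, and 6 could be tested in at least 1 comparison. In E12.5 vs. E10.5, 4 of them were tested and 3 called up, against 9.97% of all genes. Krt23 had the smallest p-value there (log2 fold change 2.57, adjusted p-value 0.00557 by Benjamini-Hochberg correction in edgeR's quasi-likelihood test). It was not tested in E11.5 vs. E10.5. Krt1 and Krt10, the pair of the suprabasal layers of the epidermis, were both called up in E12.5 vs. E10.5 as well. Krt1 was at 0.577–1.12 CPM in the E10.5 libraries, 0.718–1.21 in those of E11.5 and 2.32–3.47 in those of E12.5, with a log2 fold change of 1.58 in E12.5 vs. E11.5 (adjusted p-value 0.00971 by Benjamini-Hochberg correction in edgeR's quasi-likelihood test). Krt10 was at 4.37–5.95, 5.47–6.46 and 9.35–13.1 CPM, with a log2 fold change of 1.09 from E10.5 to E12.5 (adjusted p-value 0.0101 by Benjamini-Hochberg correction in edgeR's quasi-likelihood test). Krt7, a type II keratin of simple epithelia, was at 11.3–20.8, 7.14–8.36 and 11.8–14.2 CPM. Its log2 fold changes of −0.95 and 0.76 had adjusted p-values of 0.0426 and 0.0109 by Benjamini-Hochberg correction in edgeR's quasi-likelihood test, and both were short of the fold-change threshold. Krt7 thus had lower libraries at E11.5 than at either other stage, as Krt19 had.

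Genes of the epithelial programme around the keratins were counted from lists. Of 10 epithelial regulators, 2, 1 and 2 were called up over the first interval, the second interval and both together, against 3.46%, 4.14% and 9.97% of all genes. The list medians were 0.50, 0.13 and 0.40. None was called down by edgeR or DESeq2 (0, 2 and 0 were lower at an unadjusted p-value below 0.05). Gata3 passed the test downward in the second interval (log2 fold change −0.52, adjusted p-value 0.0179 by Benjamini-Hochberg correction in edgeR's quasi-likelihood test), short of the fold-change threshold. Klf4, a transcription factor of differentiating keratinocytes, was at 3.04–3.96 CPM in the E10.5 libraries, 12.3–19.5 in those of E11.5 and 40.3–57.1 in those of E12.5 and was called up each time (log2 fold change 2.30 in the first interval). Zfp750, which acts in terminal differentiation, was called in the first interval (1.80). Trp63, the master regulator of stratified epithelium and of Krt5 and Krt14, was at 48.4–119, 58.0–64.5 and 61.9–75.9 CPM, with log2 fold changes of −0.27 and 0.12 that did not pass. Its highest E10.5 value, 119 CPM, was that of replicate 3, and its fold change without that library is not given here.

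Of 7 genes of basal cell adhesion, 1 of 6 tested, 2 of 7 and 3 of 7 were called up in the same order, with medians of −0.28, 0.95 and 0.78. The shares of all genes called up were again 3.46%, 4.14% and 9.97%. Col17a1, the hemidesmosomal collagen of basal keratinocytes, was at 1.74–2.66 CPM in the E10.5 libraries, 19.8–23.9 in those of E11.5 and 35.0–52.7 in those of E12.5, with a log2 fold change of 3.45 in the first interval (adjusted p-value 7.23e-04 by Benjamini-Hochberg correction in edgeR's quasi-likelihood test). Itgb4, the beta chain of the hemidesmosomal integrin, rose by 1.79 on the log2 scale from E10.5 to E12.5, whereas Itga6, its alpha chain, fell by −0.81. The fall of Itga6 passed the test (adjusted p-value 0.0176 by Benjamini-Hochberg correction in edgeR's quasi-likelihood test) but lay short of the fold-change threshold, so it was not called. Of 16 suprabasal and cornified envelope genes, 2 of 8 tested, 1 of 8 and 7 of 9 were called up (2, 1 and 6 by DESeq2). None was called down by edgeR or DESeq2, and 0, 0 and 1 were lower at an unadjusted p-value below 0.05. Lypd3 rose in both intervals (2.04 in the first), Tgm1, a cross-linking enzyme of the cornified envelope, in the first (2.01), and Sfn over the 2 days (1.28). Sbsn went the other way over the 2 days and was not called. Its log2 fold change was −2.01 (adjusted p-value 0.0639 by Benjamini-Hochberg correction in edgeR's quasi-likelihood test). Ivl and Flg of this list had at most 5 and 2 counts in any library. Lor, also of this list, was called up from E10.5 to E12.5. Its log2 fold change was 1.49 (adjusted p-value 0.0491 by Benjamini-Hochberg correction in edgeR's quasi-likelihood test), at 1.02–1.30 CPM in the E12.5 libraries.

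**Figure D5:**
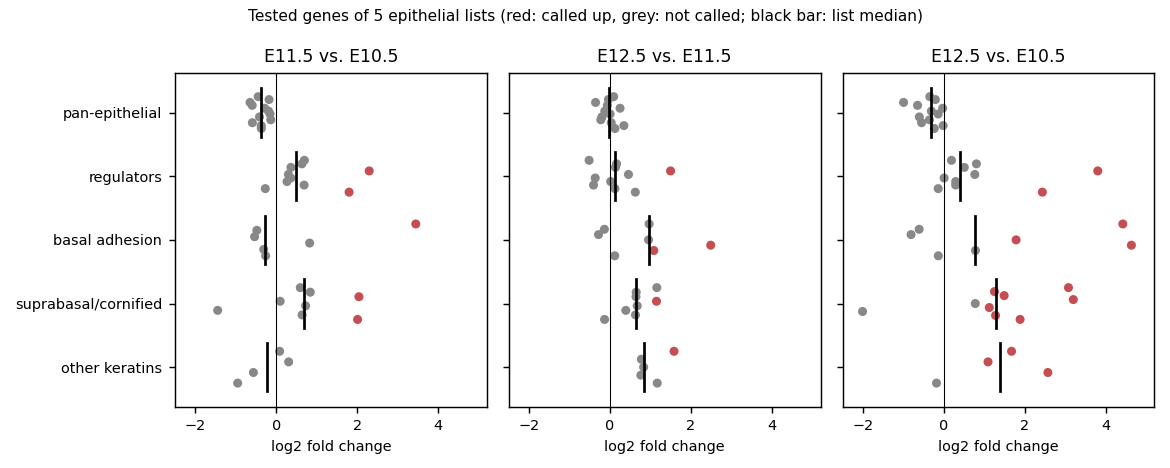
Log2 fold change (x axis) of each tested gene of 5 lists (rows) in the 3 comparisons. Red points were called up, grey points were not called, black bars are list medians, and the vertical scatter within a row carries no value. No gene of these lists was called down by edgeR or DESeq2 except Cldn6, which DESeq2 called down from E10.5 to E12.5, and 0 to 4 genes a list were lower at an unadjusted p-value below 0.05. The pan-epithelial genes lie below 0 in the first panel with a median of −0.37, with E10.5 replicate 3, the library with their highest sum, included.

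By the root-mean-square difference of centred log2(CPM + 0.5) over the 9 libraries and 16375 genes, the genes most like Krt5 were Lrrc17 (0.345), Gdf10 (0.347), Nfix (0.371), Cxcl14 (0.399) and Penk (0.419). Lrrc17, for example, was at 1.70 ± 1.02, 28.1 ± 8.38 and 106 ± 9.71 CPM at the 3 stages in turn. None of these 5 was a keratin. The genes most like Krt8 were Gnl3 (0.0939), St8sia3 (0.104), Tdrkh (0.110), Wdr12 (0.112) and Shtn1 (0.118). Gnl3, a nucleolar protein of proliferating cells, was at 153 ± 36.7, 82.8 ± 6.38 and 78.8 ± 7.67 CPM. The likeness is a description over libraries that share their stages.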

How the data were processed

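The authors deposited raw read counts per gene for 9 libraries (3 stages, 3 pools each), without normalization. Reads were mapped to mm10 with HISAT2 2.0.5 according to the submitters' processing notes. The same table's 9 FPKM columns, and its columns of the authors' own comparisons (fold changes, p-values), were not used, and reads were not reprocessed. Libraries held 16581009–20836804 counts.

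Pairs of stages were fitted separately, 6 libraries each, in R 4.3.3 with edgeR 4.0.16 (filterByExpr, TMM, quasi-likelihood test, Benjamini-Hochberg adjustment over all genes tested). Genes were called when the adjusted p-value did not exceed 0.05 and the log2 fold change was 1 or more in size, as in the study. With 3 libraries against 3, an exact permutation test cannot go below 0.1. The difference between the intervals was fitted on all 9 libraries and called at an adjusted p-value of at most 0.05. CPM use TMM-scaled sizes of the 9 libraries, and levels per kilobase the deposited gene length. The pairwise edgeR, DESeq2 and GC-corrected fits and the interval fit were tested on simulated data, the other alternatives were not. The limit of detection is 3 counts per library.

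Coordinates are those of the table and were the same in GENCODE M21 for all 10 genes. The keratins and the gene lists were chosen with earlier results of these data known. Named beside the keratins are up to 4 genes of a list with the smallest p-value in a comparison, Trp63, Ivl, Flg, Lor and Sbsn (chosen after their values were seen), and the 5 genes most like Krt5 and Krt8. Replicate numbers did not pair the samples (correlations of same-numbered libraries −0.21 to 0.22). Alternatives were other scalings, DESeq2 1.42.0, no low-count filter, 1 fit of 9 libraries, a replicate block, no fold threshold, each library left out, and, added after the data were seen, removal of each library's GC trend.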

Additional observations from a re-analysis of the deposited data

Results flagged for a closer look

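The change of Krt5 from E11.5 to E12.5 differed from that from E10.5 to E11.5 by −1.89 on the log2 scale (standard error 0.33), and its adjusted p-value was 0.0225 by Benjamini-Hochberg correction in edgeR's quasi-likelihood test. It was the only keratin for which a test of the difference between the intervals passed. All 3 E11.5 libraries lay above all E10.5 libraries, and all E12.5 libraries above all E11.5 libraries, so Krt5 was higher at each later stage in every library, and only the size of the step differed. Over the alternatives the value ran from −2.26 to −1.65, and it did not pass without E11.5 replicate 1, E11.5 replicate 3 or E12.5 replicate 1.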

How the results depend on the processing

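The number of keratins called in E11.5 vs. E10.5 was 2–5 when a library was left out, with the 2 when E11.5 replicate 1 or E11.5 replicate 3 was removed. Over all genes the calls in those fits were 395 and 453, against 954 with all libraries and 1592 without E10.5 replicate 3. The number of keratins called in E12.5 vs. E11.5 was 5 and in E12.5 vs. E10.5 5–7. The number whose intervals differed was 0–1 when a library was left out and 3 with all genes that had at least 1 count, where Krt14 and Krt19 also passed. The replicate numbers shared no more than a name, and with the replicate block that number was 2 (Krt5 and Krt14), and Krt18 was at −0.99 and −0.98 against E10.5, short of the threshold. Krt18 was also short of it in E12.5 vs. E10.5 with upper quartile normalization (−0.95). With the GC trend removed, Krt8 (−1.06) and Krt19 (−1.06) were called down there as well. The 2 values near 0 in E12.5 vs. E11.5 changed sign. Krt8 was at −0.12 with the GC trend removed and at −0.070 to 0.11 without single libraries, −0.063 without E12.5 replicate 3 among them. Krt18 was at 0.057 with upper quartile normalization, 0.0054 in the fit of 9 libraries and −0.12 to 0.079 without single libraries (0.043, 0.024, 0.079 and 0.028 without E11.5 replicates 2 and 3 and E12.5 replicates 1 and 2). The calls of Krt5 and Krt15 in all comparisons, and of Krt14, Krt17 and Krt6a in those with E12.5, held in every alternative run. The cause of the other shifts was not tested. Depth limits Krt4, Krt13 and, before E12.5, Krt6a and Krt17.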

Other observations

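Markers of other cell types were counted in the same comparisons. Of all genes tested, 3.46% were called up and 2.61% down from E10.5 to E11.5. The shares were 4.14% and 0.962% from E11.5 to E12.5, and 9.97% and 5.08% from E10.5 to E12.5. From E10.5 to E11.5, 3 of 10 mesenchyme markers were called up, and from E10.5 to E12.5 4 up and 1 down. Of 8 neural markers, 5 were called down over each of these spans. The summed neural level was 325–407 CPM at E10.5, then 162–188 CPM (E11.5) and 202–219 CPM (E12.5). Of 8 erythroid genes, 2 were called up in E11.5 vs. E10.5, 1 up and 1 down in E12.5 vs. E11.5 and 4 up and 1 down in E12.5 vs. E10.5. Of the endothelial, muscle and macrophage markers tested, none was called by edgeR or DESeq2 in any of the 3 comparisons. Of these, 1 (an endothelial marker, lower from E11.5 to E12.5) had an unadjusted p-value below 0.05. Only 2 of the 5 muscle markers had enough counts to be tested in each comparison, so the muscle list is largely untested.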
